A study of Mus musculus with 11 samples.

Results

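Open chromatin around Sox2 was examined in cells sorted from mouse esophagus. The assay was ATAC-seq, which reads where a transposase can reach the DNA. Sox2 lies on the plus strand of chromosome 3 at chr3:34649995-34652461 (GRCm38). Intervals called as open in 11 libraries were merged wherever they overlapped, which gave 124941 regions over the genome. The 40 regions within 200 kb of the Sox2 gene body were taken as the Sox2 locus. A region was called occupied in a library that held an interval in it, and its openness is given as the authors' fold enrichment of its highest interval over local background. This fold is a value of each list and is used here only to describe or rank regions within a list.

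The libraries came from 4 groups. Embryo (2 libraries) came from the esophagus of Krt8YFP embryos at embryonic day 13, with cells sorted by their yellow fluorescent protein. SmoM2-Sox9cKO (3 libraries) came from Krt5-SmoM2-Sox9fl/fl mice and SmoM2 (3 libraries) from Krt5-SmoM2 mice, both sorted for high EpCAM, an epithelial adhesion protein. SmoM2 is a constitutively active mutant of Smoothened, which passes on Hedgehog signals; the genotype names the driver Krt5, a keratin gene of basal epithelial cells. WT (3 libraries) was wild-type esophagus sorted for low EpCAM, so genotype and sort gate cannot be told apart in any comparison with WT. The strain is CD1 for SmoM2 and WT and is not given for the other groups, nor are the ages of the adults, the induction of the transgene or the part of Sox9 that is removed. Any strain difference between SmoM2-Sox9cKO and SmoM2 or WT therefore cannot be told apart from genotype. Whether replicates were separate animals is not stated, so the tests cover the spread among libraries, which may be technical. In sorted bulk cells, a smaller share of cells open at a region and less openness per cell cannot be told apart.

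Sox2 encodes a transcription factor with an HMG-box DNA-binding domain. In the mouse foregut it marks the part that becomes esophagus, opposite the Nkx2-1-expressing part that becomes trachea, and in the adult it is kept in basal cells of the squamous epithelium. Its transcription is known to depend on distal enhancers in the gene desert around it, including a control region used by mouse embryonic stem cells that lies a little over 100 kb downstream. The noncoding gene Sox2ot spans Sox2 itself.

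The promoter sequence is shown because its region was occupied in all 11 libraries and, in most of them, had its strongest summit within these bases. The bases before the start site, chr3:34649745-34649994 on the plus strand (RefSeq, GRCm38.p6), read 5′ to 3′ as follows, with capitals marking the motif matches described next.
Sox2 promoter: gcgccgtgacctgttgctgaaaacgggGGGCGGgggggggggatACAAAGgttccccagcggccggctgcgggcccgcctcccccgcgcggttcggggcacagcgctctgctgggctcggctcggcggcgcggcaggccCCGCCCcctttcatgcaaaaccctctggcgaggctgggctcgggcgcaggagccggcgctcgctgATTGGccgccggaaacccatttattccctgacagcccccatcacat
These 250 bases were 72.0% G or C and held 27 CpG dinucleotides, against medians of 52.4% and 6.0 over 32619 promoters of the same length. Both strands were searched for 7 motifs. The GC box GGGCGG, bound by Sp factors, matched at 2 places, 223 to 218 and 111 to 106 bases before the start site, and 33.0% of promoters held it. The CCAAT box, bound by NF-Y, matched on the minus strand 46 to 42 bases before it (34.0% of promoters). The SOX core ACAANG matched 206 to 201 bases before it (36.1%), and no match overlapped another. The GLI motif GACCACCCA (0.2% of promoters), the AP-1 motif TGANTCA (6.8%), the octamer ATGCAAAT (1.6%) and TATAAA (12.4%) had no match in this window.

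The 9 adult lists held 69026 to 87910 intervals and the Embryo lists 24902 and 14255. The depth of the libraries is unknown. Of 11 markers of esophageal epithelium fixed for the check, 10 or 11 had an occupied region in or within 1 kb of the gene in each adult library, against 7 in each Embryo library. Trp63, Krt8, Krt18, Krt19, Epcam and Cdh1 had a region in both Embryo libraries. Krt14 had one in Embryo 1 alone and Krt15 in Embryo 2 alone, and Krt5, Krt4 and Krt13 had none in either. In the adult libraries 4 to 6 of 7 Schwann and neural crest markers, 3 or 4 of 5 fibroblast, 2 or 3 of 4 endothelial, 0 to 2 of 4 immune and 2 or 3 of 3 smooth muscle markers had a region. The endothelial marker Cdh5 and the immune markers Ptprc and Lyz2 had none in any adult library. Regions at or near all listed endothelial markers numbered 12 to 13 in SmoM2-Sox9cKO, 11 to 13 in SmoM2 and 8 to 9 in WT, and those at fibroblast markers numbered 8 to 9 in SmoM2-Sox9cKO, 7 in each SmoM2 library and 5 to 6 in WT. Most of the endothelial ones lay at Pecam1 (11 to 12 in SmoM2-Sox9cKO, 10 to 11 in SmoM2 and 7 to 8 in WT). The fibroblast markers went opposite ways: Twist2 had 2 to 4 regions in SmoM2-Sox9cKO, 3 in each SmoM2 library and 0 to 1 in WT, and Dpt had 0 in every SmoM2-Sox9cKO and SmoM2 library and 1 to 3 in WT. Their part in the results below was not tested. Intervals at 4 Y-linked genes were present in 2 of 3 SmoM2-Sox9cKO, 3 of 3 SmoM2, 1 of 3 WT and 0 of 2 Embryo libraries. The library SmoM2 3 stood apart with the longest list, and it alone held 4 of the 8 members that were occupied in a single library.

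**Figure D1:**
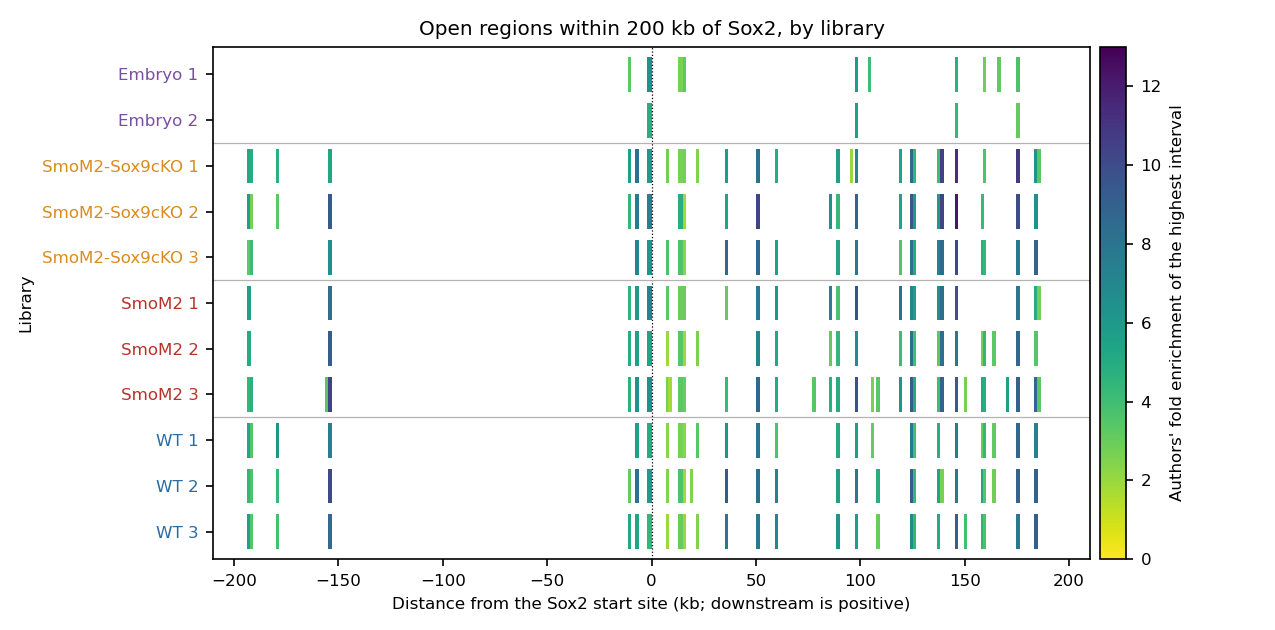
Each row is a library and each bar an occupied region, placed by its distance in kb from the Sox2 start site and coloured by the authors' fold enrichment of its highest interval. Bars narrower than 1.6 kb are drawn at that width; no library has a bar between the regions at -154.3 kb and -10.8 kb.

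The locus was lopsided. Of the 40 regions, 7 lay upstream of Sox2, 1 overlapped it and 32 lay downstream. The longest stretch without a region in any library ran 142.6 kb, from chr3:34496151 to chr3:34638797, and it holds the annotated start coordinate of Sox2ot. The next longest was 22.3 kb. Sox2ot overlapped 9 of the regions and annotated genes of any kind overlapped 15, so 25 were intergenic in this annotation. The 40 regions placed the Sox2 window above 62.9% of 21627 windows made in the same way around all protein-coding genes (median 34.0 regions). The median region was 749.5 bp wide, against 693.0 bp over the genome. The outermost members lay 192.4 kb upstream, occupied in all 9 adult libraries, and 182.3 kb downstream, occupied in 1 of 3 SmoM2-Sox9cKO, 2 of 3 SmoM2 and 0 of 3 WT libraries. The nearest regions outside the limit lay 204.3 kb upstream, occupied in 2 WT libraries, and 203.6 kb downstream (chr3:34856070-34856529), occupied in 0 of 3 SmoM2-Sox9cKO, 0 of 3 SmoM2 and 3 of 3 WT libraries.

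Among the 40 regions, 4 were occupied in all 11 libraries, where 8.45% of all regions were. The promoter region (chr3:34647857-34650366) is the only member that overlaps Sox2. Its fold enrichment was 6.39 and 4.78 in Embryo, 6.01, 7.39 and 6.23 in SmoM2-Sox9cKO, 7.06, 5.4 and 6.35 in SmoM2, and 4.98, 5.91 and 4.46 in WT. In 9 of 11 libraries the strongest summit lay within the 250 bases printed above. The exceptions were SmoM2-Sox9cKO 3 and WT 1, with summits at -502 and -493 bp from the start site. The intervals at the promoter were broader in adults, which was not particular to it. At +145.7 kb they were 534 bp in both Embryo libraries and 720 to 999 bp in adults. At +175.5 kb they were 405 and 375 bp against 918 to 1489 bp. At +97.9 kb the widths overlapped (1006 and 820 bp against 970 to 1137 bp). Whether the short Embryo lists could hold the weak interval described next was not tested. In 8 of 9 adult libraries a weaker separate interval lay about 2 kb before the start site, and in WT 3 a single interval of 2387 bp spanned both, whereas the Embryo libraries held intervals of 792 and 378 bp at the start site. The only other member within 5 kb of the gene body lies in Sox2ot downstream of Sox2, at +7.5 kb from the start site (chr3:34656948-34658022). It was among the weakest regions, with folds of 2.76 and 3.64 in SmoM2-Sox9cKO 1 and 3, 3.3, 1.92 and 2.73 in SmoM2, and 2.29, 2.49 and 1.98 in WT, and no interval in Embryo.

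**Figure D2:**
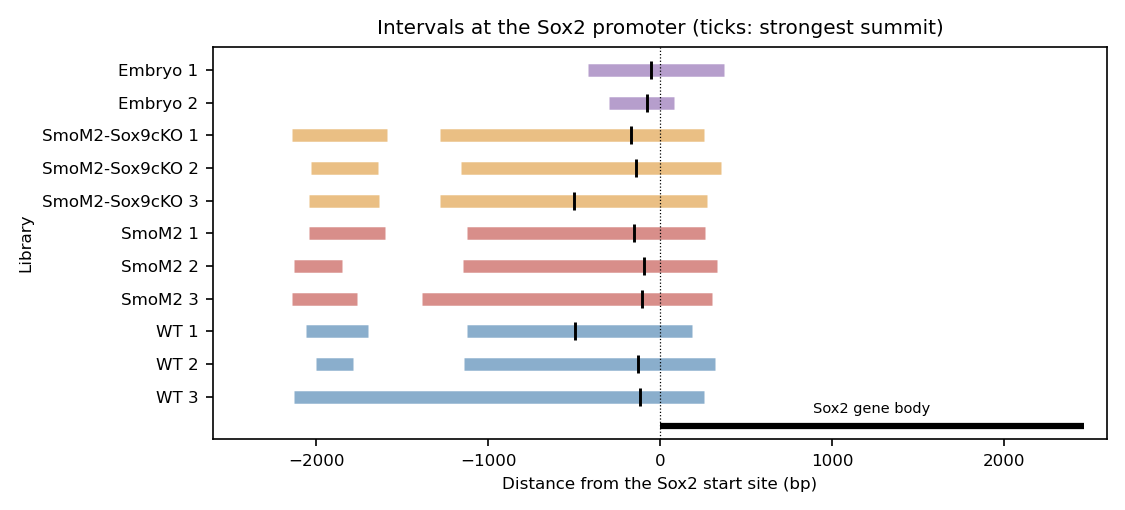
Bars are the intervals each library held at the Sox2 promoter, by distance in bp from the start site, and ticks mark the strongest summit. The Embryo intervals of 792 and 378 bp sit at the start site, and the adult ones reach about 2 kb before it.

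The other regions occupied in every library were distal. The region at +97.9 kb (chr3:34747321-34748497) had folds of 5.92 and 5.65 in Embryo, 6.92, 8.81 and 7.74 in SmoM2-Sox9cKO, 9.80, 6.65 and 9.68 in SmoM2, and 5.69, 7.87 and 5.81 in WT. The region at +145.7 kb (chr3:34795207-34796265) had 4.72 and 4.46 in Embryo, 11.23, 12.24 and 10.14 in SmoM2-Sox9cKO, 9.74, 7.79 and 9.27 in SmoM2, and 7.64, 7.73 and 9.10 in WT. The region at +175.5 kb (chr3:34824693-34826260), which ends before the annotated start of the noncoding gene Gm21388 at chr3:34826557, had 3.73 and 3.07 in Embryo, 10.83, 10.04 and 7.73 in SmoM2-Sox9cKO, 7.83, 8.60 and 8.95 in SmoM2, and 8.66, 8.85 and 7.73 in WT. Set against the list it came from, the +97.9 kb region exceeded 68.7% and 75.0% of the regions of Embryo 1 and Embryo 2, and the +175.5 kb region 26% and 10.9%. Embryo and adult lists differ in length, so ranks in them are not compared. Strongest summits of the +97.9 kb region fell within 280 bp of each other over the 11 libraries, and those of the +145.7 kb region within 155 bp.

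Across all 40 regions, the numbers occupied at Sox2 lay close together in the adult groups. SmoM2-Sox9cKO libraries held 27, 23 and 23 occupied regions, SmoM2 libraries 23, 25 and 33, and WT libraries 25, 27 and 26. The groups overlapped in these counts. Scaled to 100000 occupied regions of the library, the means were 32.2 ± 1.21 in SmoM2-Sox9cKO, 34.1 ± 4.50 in SmoM2 and 36.0 ± 1.33 in WT (SD, n = 3 each). On that scale the SmoM2-Sox9cKO libraries (33.5, 31.1 and 32.0) lay below the WT libraries (37.5, 35.7 and 34.9) without overlap. SmoM2 (29.7, 33.9 and 38.7) spanned both. How many other windows separate SmoM2-Sox9cKO from WT in this way was not counted, so the separation has no background to be read against. Covered length was 17.8 ± 3.71, 18.5 ± 4.04 and 19.6 ± 1.62 kb in the same order of groups. Windows of all genes were fitted together with limma. The log2 change of the Sox2 window was -0.09 for SmoM2 against WT (SE 0.09, 95% interval -0.28 to 0.10, Benjamini-Hochberg adjusted p = 0.497). It was -0.07 for SmoM2-Sox9cKO against SmoM2 (-0.26 to 0.12, limma adjusted p = 0.654) and -0.16 for SmoM2-Sox9cKO against WT (-0.35 to 0.03, limma adjusted p = 0.251). The window did not pass in any of these, while 25.8%, 3.07% and 15.3% of 19869 windows did. The median over all windows was -0.10 for SmoM2 against WT, 0.06 for SmoM2-Sox9cKO against SmoM2 and -0.03 for SmoM2-Sox9cKO against WT. The Sox2 value was close to the median in SmoM2 against WT and below it in the other comparisons. For SmoM2-Sox9cKO against WT the change was -0.42 (95% interval -0.77 to -0.06, limma adjusted p = 0.106) where intervals had to cover at least 50% of a region. In SmoM2 against WT 1541 windows were higher and 3577 lower, and without scaling by library totals 1070 were higher and 358 lower. The 3 adult comparisons share libraries. Unscaled, 495 windows were higher and 279 lower for SmoM2-Sox9cKO against WT, where the scaled fit gave 1331 and 1717, and 4 and 41 for SmoM2-Sox9cKO against SmoM2, where it gave 405 and 205. With a covariate for Y-linked intervals, the SmoM2 against WT change was -0.12 (limma adjusted p = 0.516).

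**Figure D3:**
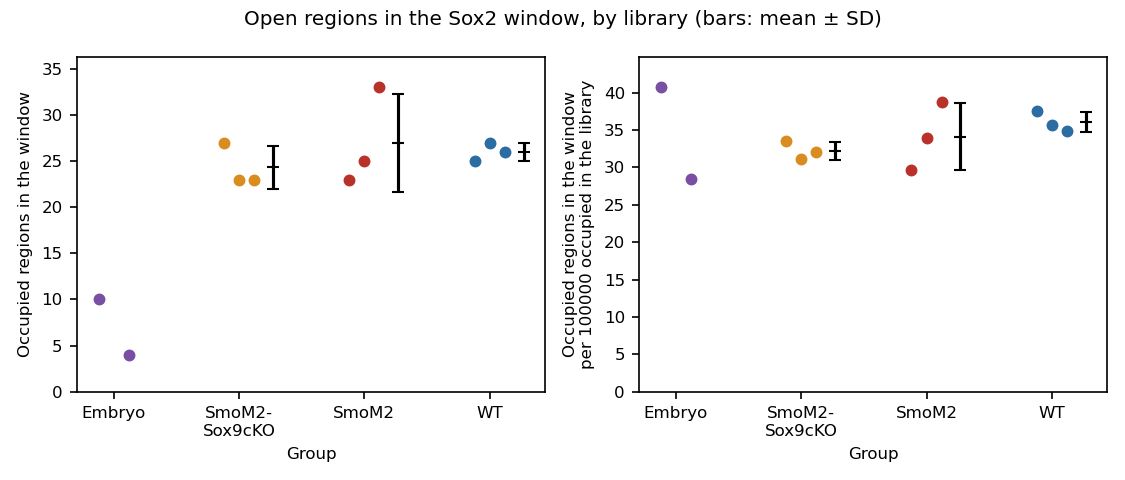
Points are libraries; the left panel counts occupied regions in the Sox2 window and the right panel scales them to 100000 occupied regions of the library, with mean ± SD for groups of 3. The adult groups overlap in the counts, where SmoM2 3 is highest with 33 regions. On the scaled axis SmoM2-Sox9cKO (at most 33.5) sits below WT (at least 34.9). How many other windows separate in this way was not counted, and the Sox2 window did not pass in that comparison.

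A few single regions were held by every SmoM2 library and no WT library, or the reverse. A region was called gained where all libraries of the first group and none of the second held it, and lost in the reverse case. Single regions carry no p, since an exact test of 3 against 3 libraries cannot go below 0.1. At Sox2, 2 of 40 regions were gained and 1 was lost, where 6.91% and 3.11% of all regions were, so the shares were near the background. Between SmoM2-Sox9cKO and SmoM2 none was gained or lost (0.678% and 1.34% of all regions). Between SmoM2-Sox9cKO and WT 1 was gained and 0 were lost (4.26% and 2.69% of all regions).

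The gained region at +118.6 kb (chr3:34768301-34768972, intergenic) had folds of 5.47, 5.44 and 3.57 in SmoM2-Sox9cKO and 8.33, 4.02 and 6.23 in SmoM2, and no interval in WT or Embryo. It was gained in both groups against WT. The library SmoM2-Sox9cKO 3, without Y-linked intervals, held it, and WT 1, with them, did not. The other libraries that held it had Y-linked intervals, and WT 2, WT 3 and both Embryo libraries, without them, did not hold it. Its −log10 p was 5.1 or more in the 6 libraries that held it. The gained region at +85.2 kb (chr3:34735010-34735296, intergenic) had a fold of 6.38 in SmoM2-Sox9cKO 2 alone of that group, 7.27, 3.16 and 4.77 in SmoM2, and no interval in WT or Embryo. Its 4 intervals were short, at 266 to 285 bp, and all came from libraries with Y-linked intervals. The lost region at -179.3 kb (chr3:34470120-34471191, intergenic) had folds of 4.70 and 3.33 in SmoM2-Sox9cKO 1 and 2, no interval in SmoM2, and 6.22, 4.28 and 3.87 in WT. WT 2 and WT 3, without Y-linked intervals, and WT 1 and SmoM2-Sox9cKO 1 and 2, with them, held it. Whether any of these calls follows the Y-linked intervals was not tested. Its −log10 p was at most 11.2 in any library.

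The region with the strongest intervals among those that differed missed the call by a single weak interval. The region at +138.8 kb (chr3:34788405-34789105, intergenic) had folds of 10.48, 10.31 and 8.52 in SmoM2-Sox9cKO and 8.38, 8.35 and 8.91 in SmoM2. In WT it had an interval in WT 2 alone, with a fold of 2.67 and a −log10 p of 3.3, while −log10 p reached 92.6 among the SmoM2-Sox9cKO and SmoM2 libraries. In those 6 libraries it exceeded 77.0% to 93.8% of the regions of its list, against 4.1% in WT 2. Neither Embryo library held it. All 7 summits fell within 106 bp. It was gained in both groups against WT when WT 2 was left out, when all adult lists were cut to the same length, when only intervals with a −log10 q of at least 5 were kept, and when intervals had to cover at least 50% of the region. Each of these settings takes away the 219 bp interval of WT 2, so the region is called under them by construction. With all 11 lists cut to 14255 intervals, which also drops that interval and left 8 regions in the window, it was the only one gained in SmoM2 or in SmoM2-Sox9cKO against WT. Over the genome 882 and 807 of 32402 regions were gained there. Under the −log10 q minimum the +85.2 kb and -179.3 kb calls ended, and the +118.6 kb call ended for SmoM2-Sox9cKO against WT.

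**Figure D4:**
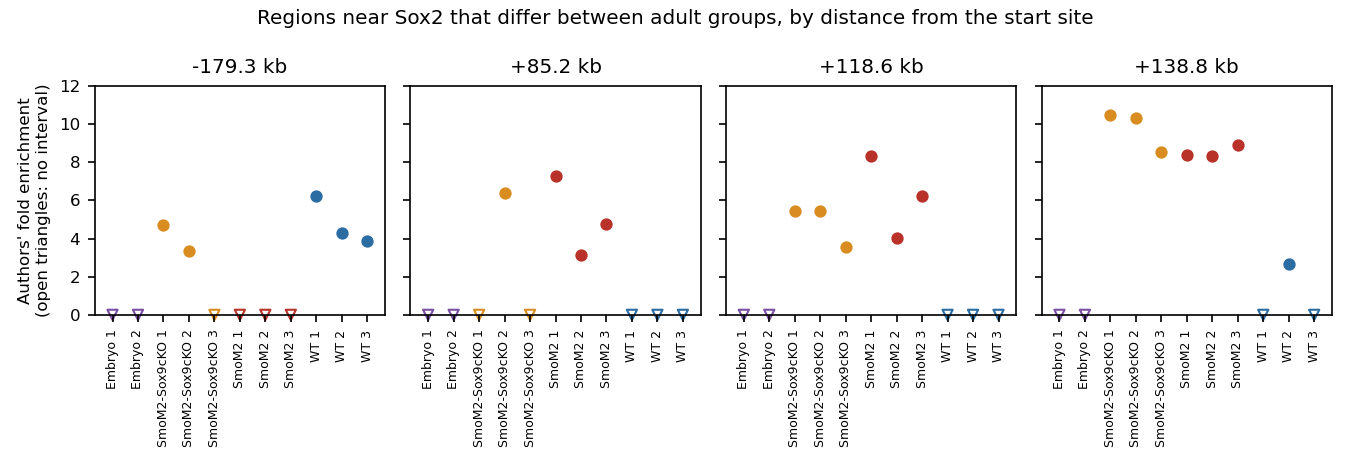
Fold enrichment by library at the regions -179.3, +85.2, +118.6 and +138.8 kb from the Sox2 start site, with open triangles where a library held no interval. At +138.8 kb the 6 SmoM2-Sox9cKO and SmoM2 libraries sit between 8.35 and 10.48 and WT 2 at 2.67.

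Several members were held by some libraries of a group only. The region at -191.6 kb had folds of 4.89, 2.72 and 4.17 in SmoM2-Sox9cKO, 4.71 in SmoM2 3 alone, and 3.53, 3.70 and 3.48 in WT. The region at +35.4 kb had 5.80, 5.44 and 8.63 in SmoM2-Sox9cKO, 3.08 and 4.24 in SmoM2 1 and 3, and 6.22, 9.36 and 7.86 in WT. These 2 of 40 were the members held by all SmoM2-Sox9cKO and WT libraries and not by all SmoM2 libraries, where 2.49% of all regions were. As many, those at +7.5 and +59.4 kb, were held by all SmoM2 and WT libraries and not by all SmoM2-Sox9cKO libraries (2.23% of all regions). The region at +59.4 kb, in Gm3143, had 4.98 and 5.65 in SmoM2-Sox9cKO 1 and 3, 6.16, 5.22 and 5.04 in SmoM2, and 3.66, 7.22 and 6.91 in WT. The stretch that holds the control region of embryonic stem cells was sparsely occupied. The region at +103.8 kb was held by Embryo 1 alone with a fold of 4.0, the one at +105.2 kb by SmoM2 3 and WT 1 (2.65 and 3.11), and the one at +107.9 kb by SmoM2 3, WT 2 and WT 3 (3.45, 4.81 and 3.04).

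In all 9 adult libraries 15 of the 40 regions were occupied, where 35.6% of all regions were. Their relative openness was ranked within each library among the 44519 regions of the genome that all 9 adult libraries share, as a percentile of fold enrichment. No test was run on these ranks. The regions at +145.7, +124.1, +175.5 and -154.3 kb, with the +138.8 kb region, had the highest median percentile of fold in the lists that held them. In SmoM2 against WT none of the 15 ranked higher without overlap and 4 ranked lower, where 13.8% and 14.0% of the shared regions did. The region at -7.4 kb had percentiles of 36.4, 35.2 and 35.0 in SmoM2 and 45.2, 66.1 and 39.9 in WT. The one at +51.1 kb, in the noncoding gene Gm3143, had 58.4, 57.4 and 64.7 in SmoM2 and 79.3, 66.7 and 77.6 in WT. The one at +89.2 kb had 6.9, 18.4 and 17.5 in SmoM2 and 36.1, 30.5 and 55.5 in WT. The one at +183.9 kb, in Gm21388, had 21.6, 6.6 and 65.4 in SmoM2 and 70.4, 73.9 and 89.3 in WT, with SmoM2 3 far above the other SmoM2 libraries.

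Between SmoM2-Sox9cKO and SmoM2, 3 of the 15 ranked higher without overlap and 1 lower, where 7.0% and 6.84% of the shared regions did. The higher ones were those at -7.4, +51.1 and +145.7 kb. At -7.4 kb SmoM2-Sox9cKO had 68.0, 45.1 and 48.1, and at +51.1 kb 69.4, 70.8 and 67.1, against the SmoM2 values above. At +145.7 kb SmoM2-Sox9cKO had 93.4, 84.3 and 80.2 and SmoM2 79.6, 66.5 and 70.8, a gap of under 1 percentile point between the closest libraries. The lower one lay far upstream at -154.3 kb, with 27.7, 62.2 and 42.3 in SmoM2-Sox9cKO, 66.0, 81.9 and 81.8 in SmoM2, and 73.1, 84.8 and 85.0 in WT. It was also lower in SmoM2-Sox9cKO than in WT, as was the region at +183.9 kb (43.3, 31.0 and 68.6 in SmoM2-Sox9cKO). The promoter region ranked higher in SmoM2-Sox9cKO (39.0, 42.3 and 38.0) than in WT (33.8, 35.7 and 24.3), with 50.7, 32.5 and 35.7 in SmoM2. In that comparison 1 of the 15 was higher and 2 were lower, where 12.4% and 11.9% of the shared regions were. Ranked by −log10 p in place of fold, the promoter overlapped between SmoM2-Sox9cKO (71.3, 66.0 and 67.6) and WT (70.6, 73.8 and 59.0) and was lower than in SmoM2 (72.7, 73.4 and 72.8). The +145.7 kb region then overlapped between SmoM2-Sox9cKO and SmoM2. The calls at -154.3, -7.4, +51.1 and +183.9 kb, and that at +89.2 kb for SmoM2 against WT, were made by both values.

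**Figure D5:**
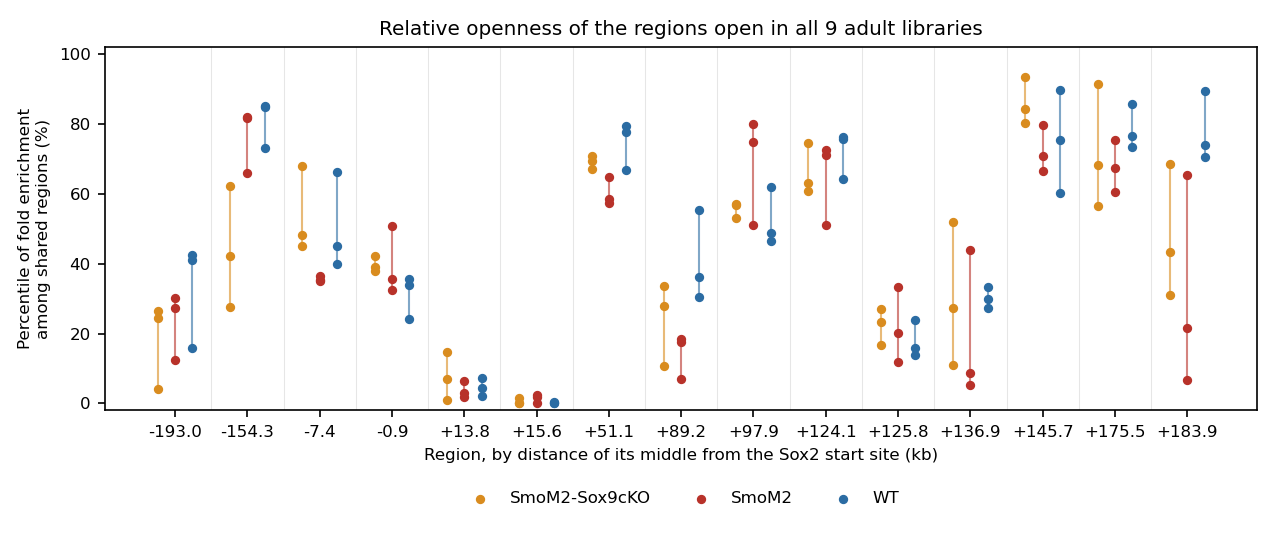
Points are adult libraries and lines span each group; the y axis is the percentile of a region's fold enrichment among the 44519 regions shared by all 9 adult libraries, and regions run by distance from the Sox2 start site. SmoM2 sits below WT without overlap at -7.4, +51.1, +89.2 and +183.9 kb.

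The Embryo libraries, whose lists were far shorter, held few of these regions, in shares near those over all regions. Embryo 1 held 10 and Embryo 2 held 4, against 25, 27 and 26 in WT. Of the 40, 10 were held by at least 1 Embryo library and 4 by both, where 21.0% and 9.84% of all regions were. Those 4 are the ones occupied in every library. Scaled to 100000 occupied regions the values were 40.7 and 28.5 in Embryo, on either side of the WT mean of 36.0. The log2 change against WT was 0.01 (95% interval -0.28 to 0.30, limma adjusted p = 0.938), below the median of 0.351 over all windows, and 66.5% of 19840 windows passed. Without scaling it was -1.95 (limma adjusted p = 0.000135), where the median was -1.608 and 40 windows were higher and 18594 lower, against 9673 and 3512 in the scaled fit. Embryo 2 lists 14255 intervals and each adult library at least 69026. Over its alternatives the adjusted p ran from 0.000135 to 0.977. No region was gained and 15 of 40 were lost in Embryo against WT, where 0.708% and 32.2% of all regions were, and with all lists cut to 14255 intervals 1 of 8 was lost, where 4146 of 32402 regions were. Regions at +103.8 and +165.9 kb were held by Embryo 1 and by no other library, with folds of 4.0 and 3.15.

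Other genes of foregut patterning, Hedgehog signaling and squamous identity were read in the same way, as windows of 200 kb. The targeted gene Sox9 held 23, 24 and 23 regions in SmoM2-Sox9cKO, 20, 19 and 21 in SmoM2 and 20, 17 and 21 in WT. Its window did not pass for SmoM2-Sox9cKO against SmoM2 (log2 change 0.28, limma adjusted p = 0.129) or against WT (0.21, limma adjusted p = 0.193). Open intervals around it do not check the deletion. Of 36 genes listed, 34 were tested. In SmoM2 against WT 3 were higher and 7 lower, where 7.76% and 18.0% of windows were, and the median change was -0.077 against -0.101 over all windows. Ptch1, the Hedgehog receptor and target, held 30, 28 and 33 regions in SmoM2 and 15, 18 and 18 in WT (log2 change 0.70, limma adjusted p = 2.13e-05). Bmp4, a ventral foregut ligand, held 14, 14 and 15 in SmoM2 and 22, 24 and 21 in WT (log2 change -0.74, limma adjusted p = 0.000208). Foxa2 and Rarb were also higher, and Nkx2-1, Pdx1, Cdx2, Shh, Sox21 and Tfap2c lower. With the covariate for Y-linked intervals Foxa2, Rarb, Nkx2-1 and Sox21 did not pass, and Wnt2 passed as higher. Over all windows 2157 then passed in place of 5118. Without scaling by library totals Ptch1 and Bmp4 alone of the list passed, and Ptch1 did not pass in windows of 100 kb. In SmoM2-Sox9cKO against SmoM2 0 were higher and Gli3, a Hedgehog effector, was lower (2.04% and 1.03% of windows), with 19, 14 and 14 against 20, 23 and 23 regions (log2 change -0.43, limma adjusted p = 0.0383). That call ended without scaling, and when any adult library other than SmoM2-Sox9cKO 1 or WT 2 was left out. It also ended in windows of 100 and 50 kb, without the filter on mean regions, with only the 2 groups compared and with the covariate for Y-linked intervals. At an unadjusted limma p under 0.05, 5 of the list were higher and 3 lower. The share of all windows at that threshold was not counted, so these counts have no background to be read against. In SmoM2-Sox9cKO against WT 3 were higher (Foxa2, Grhl2, Ptch1) and 4 lower (Bmp4, Isl1, Shh, Tfap2c), where 6.70% and 8.64% of windows were. Isl1 lay near the floor, with 1, 0 and 0 regions in SmoM2-Sox9cKO and 1, 3 and 1 in WT. With the covariate for Y-linked intervals Foxa2 and Grhl2 did not pass in this comparison. Trp63, the p63 gene that works with Sox2 in squamous progenitors, held 66, 55 and 57 regions in SmoM2-Sox9cKO, 52, 53 and 70 in SmoM2 and 55, 63 and 56 in WT, and passed in none of the adult comparisons in the fit reported. With adult lists cut to the same length, Trp63 passed as lower in SmoM2 than in WT. In Embryo against WT 11 were higher and 10 lower, where 48.8% and 17.7% of windows were. Foxa2 held 13 and 4 regions in Embryo and 5, 8 and 5 in WT (log2 change 2.25, limma adjusted p = 6.99e-06), and Trp63 held 4 and 4 in Embryo (log2 change -1.74, limma adjusted p = 3.5e-06). Without scaling 0 were higher (0 at an unadjusted limma p under 0.05) and 28 lower.

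The 5 genes whose scaled window counts over the 9 adult libraries followed those of Sox2 most closely were Tapt1 (Pearson r = 0.929), Vegfd (0.920), Trim44 (0.912), Fzd7 (0.904) and Erap1 (0.897), among windows that do not overlap that of Sox2. The points share libraries and totals, and no test was made. In all 5, as in Sox2, SmoM2 3 held the most regions, with 12 at Tapt1 and 25 at Vegfd. The genes were picked by these same counts and SmoM2 3 has the longest list, so this shared peak is not a separate result.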

How the data were processed

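One list of open intervals was used for each of 11 ATAC-seq libraries, in 10 columns without a header. Tools named per the submitters' processing notes are Trimmomatic, Bowtie2, Picard, MACS2 and deepTools, with the build GRCm38/mm10. Their roles, versions and settings are not stated there. The authors' score (column 5) was deposited by them and not used. The deposited columns were read by the narrowPeak layout of MACS2 as the authors' fold enrichment over local background, −log10 p-value, −log10 q-value and summit position. The number of intervals depends on read depth, which is unknown, so a library sequenced more deeply can hold more regions.

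An interval listed on several lines, once per summit, was counted once. On chromosomes 1 to 19 and X, intervals that overlapped by at least 1 bp were joined into regions. Coordinates are 1-based. Gene bodies came from RefSeq (GRCm38.p6, 21627 protein-coding genes). For each gene the occupied regions within 200 kb were counted and tested with limma 3.58.1 (R 4.3.3, trend on) on log2((regions + 0.5) / (total + 1) × 100000), for windows with a mean of at least 1 region. The 9 adult libraries were fitted together, and all 11 for Embryo. Adjustment was by Benjamini-Hochberg over all windows, at 0.05. Neighbouring windows share regions. The fit was first tested on simulated data. Members, lists and tests were chosen with earlier results of these data known. Genes and regions named are Sox2, regions at its promoter, gained or lost, occupied in both Embryo libraries or among the 5 with the highest median fold percentile, list members that passed, and the 5 most similar genes; others (regions at the limit of the window, the embryonic stem cell stretch, the +165.9 kb region, Sox9, Trp63) were chosen after their values were seen. Alternatives covered intervals, list lengths, overlap, windows, scaling, pseudocount, filter, covariates and left-out libraries.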

Additional observations from a re-analysis of the deposited data

How the results depend on the processing

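The Sox2 window did not pass for any adult comparison under any of 23 alternatives each, with adjusted limma p of 0.178 to 0.968 (SmoM2 against WT), 0.346 to 1.0 (SmoM2-Sox9cKO against SmoM2) and 0.106 to 0.825 (SmoM2-Sox9cKO against WT). The sign turned without scaling for SmoM2 against WT (0.037) and with lists of equal length for SmoM2-Sox9cKO against SmoM2 (0.005). Leaving out each library gave -0.178 to 0.007 and -0.166 to 0.019, positive for SmoM2 against WT without SmoM2 1 and for SmoM2-Sox9cKO against SmoM2 without SmoM2 3. For Embryo against WT it was -0.209 with the −log10 q minimum, -0.363 with lists of equal length, -0.032 with a pseudocount of 0.25, -0.111 with covered base pairs, -1.946 without scaling, 0.401 with 50% cover, 0.246 and 0.142 in windows of 100 and 50 kb, and -0.195 to 0.222 with a library left out, negative without Embryo 1 or WT 3. For SmoM2-Sox9cKO against WT it was -0.415 with 50% cover and -0.236 in a window of 50 kb (limma adjusted p = 0.106 and 0.156), with 95% intervals of -0.77 to -0.06 and -0.45 to -0.02. The cause was not tested.

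For SmoM2 against WT the gained and lost regions numbered 1 and 0 in a window of 100 kb and 0 and 0 in one of 50 kb, lost ones 0 with the −log10 q minimum and 3 with 50% cover, and 2 to 3 and 1 to 2 with a library left out (2 lost without SmoM2 3). Over all regions, 2767 of 92859 were lost with the −log10 q minimum, 5466 of 124941 with 50% cover and 5534 without SmoM2 3. For SmoM2-Sox9cKO against SmoM2, 1 was gained where 2 of 3 libraries sufficed, and 0 to 1 were gained (1 without SmoM2-Sox9cKO 3 or SmoM2 3) and 0 to 1 lost (1 without SmoM2-Sox9cKO 2) with a library left out. Of all 124941 regions, 3204 were gained where 2 of 3 libraries sufficed, 1550 without SmoM2-Sox9cKO 3 and 1965 without SmoM2 3. Without SmoM2-Sox9cKO 2, 2699 of them were lost. For SmoM2-Sox9cKO against WT, 2 were gained with lists of equal length and 0 in windows of 100 and 50 kb, 2 were lost where 2 of 3 libraries sufficed and 1 with 50% cover, and 1 to 2 (2 without WT 2) and 0 to 1 (1 without WT 1 or WT 3) with a library left out. Over the genome, 4556 of 110193 were gained with lists of equal length and 6610 of 124941 without WT 2. Lost ones numbered 7465 where 2 of 3 libraries sufficed, 4480 with 50% cover, 5652 without WT 1 and 4371 without WT 3. For Embryo against WT, 2 were gained where 1 of 2 libraries sufficed and 0 to 2 with a library left out (2 without Embryo 2), and 1 was lost with lists of equal length (of 8 regions), 6 within 100 kb, 4 within 50 kb and 15 to 18 with a library left out. Among all 124941 regions, 6046 were gained where 1 of 2 libraries sufficed and 5111 without Embryo 2, and 46848 were lost without Embryo 1. With lists of equal length 4146 of 32402 were lost. The smaller windows hold fewer regions by construction.

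Of the foregut list, without scaling 1 was higher and 1 lower for SmoM2 against WT and for SmoM2-Sox9cKO against WT, 0 lower for SmoM2-Sox9cKO against SmoM2, and 0 higher and 28 lower for Embryo against WT. With a library left out the counts ran from 1 to 3 and 4 to 7, 1 to 3 and 3 to 5, 0 to 1 and 0 to 2, and 10 to 11 and 9 to 12 in the same order of comparisons. Ranked by −log10 p, 2 of the 15 shared regions were higher for SmoM2-Sox9cKO against SmoM2 and 2 lower (-154.3 kb and the promoter). Over the genome 3497 and 3370 of 44519 shared regions were. For SmoM2-Sox9cKO against WT 2 were higher (+136.9 and +145.7 kb) and 4 lower (-154.3, +89.2, +97.9 and +183.9 kb), where 6664 and 6980 of the 44519 were.

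Replicate numbers were not treated as pairs in the fit reported. With group means removed, same-numbered libraries of different groups had correlations of -0.14 to 0.17 and differently numbered ones -0.19 to 0.22. With 3 libraries per group these cannot exclude pairing. With the replicate number as a block, the Sox2 changes stayed at -0.086, -0.073 and -0.159 (limma adjusted p = 0.503, 0.661 and 0.254). More windows then passed for SmoM2 against WT (5489 in place of 5118), SmoM2-Sox9cKO against SmoM2 (1337 in place of 610) and SmoM2-Sox9cKO against WT (3436 in place of 3048). Over all alternatives windows called ran from 1428 to 6174 (5118 in the fit reported), 45 to 1932 (610), 774 to 5401 (3048) and 6284 to 18634 (13185) in the order SmoM2 against WT, SmoM2-Sox9cKO against SmoM2, SmoM2-Sox9cKO against WT and Embryo against WT. Unknown depth limits every count of regions.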
